A study of Mus musculus with 17 samples.

Results

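Interferon-stimulated genes were followed as a set of 31 named genes in mouse liver and liver tumor. The members were the rows of both gene-count tables whose symbol was on the list, and all 31 of 31 were found among the 19032 genes that the tables share (19151 genes under the first diet and 24233 under the second). The samples were 17 libraries from mice with or without a liver-specific deletion of Nus1, the gene of the Nogo-B receptor NgBR. NgBR is a subunit of cis-prenyltransferase, the enzyme that makes the dolichol on which N-glycans are built. In knockout mice (N-LKO) an albumin-promoter Cre removes a loxP-flanked allele in hepatocytes, so other liver cells keep the gene. All mice were male on a C57BL6 background, grew up on standard chow and were then fed for 16 weeks. The high-fat diet (HFD) gave 4 WT livers and 4 N-LKO livers, and the Western diet (WD), rich in fat and cholesterol, gave 3 WT livers, 3 livers of N-LKO mice and 3 tumors of N-LKO mice. Libraries were labelled as biological replicates, but the labels do not tie tumors and livers to single mice, so p-values measure the spread between these samples.

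Type I interferons are secreted when a cell senses foreign or misplaced nucleic acid. Type I interferons bind the receptor made of IFNAR1 and IFNAR2, whose kinases JAK1 and TYK2 activate STAT proteins, and STAT2 joins IRF9 in a complex that binds interferon-stimulated response elements (ISRE) in promoters. Interferon gamma signals through IFNGR1 and IFNGR2 and acts on promoters with gamma-activated sites (GAS). In the liver both hepatocytes and immune cells respond. The members fall into RNA and DNA sensors (Ddx58 or RIG-I, Ifih1 or MDA5, Dhx58 or LGP2, Zbp1), transcription factors (Irf1, Irf7, Irf9, Stat2), Ifit proteins that bind foreign RNA (Ifit1, Ifit2, Ifit3), oligoadenylate synthetases and their relatives (Oas1a, Oas2, Oas3, Oasl1, Oasl2), the ubiquitin-like modifier Isg15 with its protease Usp18, guanylate-binding proteins (Gbp2, Gbp3, Gbp7), and 10 other effectors.

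The promoters of these genes are shown to make the shared response elements visible. RefSeq promoter windows on GRCm38.p6, from 250 bases before to 50 after the transcription start, were given for 23 of the 31 members. The ISRE letters GAAANNGAAA, read on both strands, were present in the window of 14 of these 23 members (60.9%) and of 1079 of 27025 genes (3.99%). The GAS letters TTCNNNGAA, which read the same on both strands, were present in 7 of 23 members (30.4%) and in 9.55% of all genes. Below are the 250 bases before the start of 5 members, chosen as genes that head the results or stand for the shared elements, 5′ to 3′ on the strand of the gene, with capitals for ISRE and GAS letters.
Isg15 (chr4:156200819-156201068, - strand): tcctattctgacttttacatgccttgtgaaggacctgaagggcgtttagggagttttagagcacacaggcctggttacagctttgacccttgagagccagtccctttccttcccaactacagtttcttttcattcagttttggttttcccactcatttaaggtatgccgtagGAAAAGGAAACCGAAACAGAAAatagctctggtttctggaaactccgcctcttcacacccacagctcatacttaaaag
Ifit3 (chr19:34583279-34583528, + strand): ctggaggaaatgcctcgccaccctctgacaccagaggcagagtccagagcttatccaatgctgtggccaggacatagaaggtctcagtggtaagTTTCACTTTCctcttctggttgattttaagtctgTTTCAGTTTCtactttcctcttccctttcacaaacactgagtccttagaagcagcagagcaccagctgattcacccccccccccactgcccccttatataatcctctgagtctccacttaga
Gbp7 (chr3:142530086-142530335, + strand): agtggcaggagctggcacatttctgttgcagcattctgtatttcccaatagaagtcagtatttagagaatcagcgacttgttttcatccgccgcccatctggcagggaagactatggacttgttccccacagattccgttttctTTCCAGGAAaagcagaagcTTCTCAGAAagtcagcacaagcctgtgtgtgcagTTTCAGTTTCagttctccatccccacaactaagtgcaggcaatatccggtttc
Bst2 (chr8:71537473-71537722, - strand): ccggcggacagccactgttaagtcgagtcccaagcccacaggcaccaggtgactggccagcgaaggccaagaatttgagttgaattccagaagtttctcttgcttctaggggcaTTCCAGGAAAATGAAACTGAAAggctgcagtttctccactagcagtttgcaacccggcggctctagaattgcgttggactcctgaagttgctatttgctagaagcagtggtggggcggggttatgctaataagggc
Xaf1 (chr11:72301379-72301628, + strand): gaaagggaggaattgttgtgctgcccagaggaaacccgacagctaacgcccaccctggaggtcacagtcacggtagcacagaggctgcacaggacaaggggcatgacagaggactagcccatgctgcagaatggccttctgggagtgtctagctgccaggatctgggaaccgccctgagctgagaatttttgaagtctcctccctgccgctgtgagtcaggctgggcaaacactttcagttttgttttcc

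Isg15 held 3 overlapping ISRE matches between bases -78 and -57 from the start. Ifit3 held a pair of separate matches, at -156 to -147 and at -122 to -113. In Gbp7 an ISRE match at -53 to -44 lay downstream of GAS matches at -106 to -98 and -87 to -79. In Bst2, which encodes tetherin, a membrane protein that holds budding virus at the cell surface, a GAS match at -136 to -128 ran into overlapping ISRE matches at -130 to -121 and -124 to -115. The window of Xaf1, a pro-apoptotic antagonist of the inhibitor of apoptosis XIAP, held neither set of letters. A match is a string of letters in a window and not a measured site.

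Depth was the sum of estimated counts in a library. It ran from 9096110 to 12215784 under HFD and from 15494731 to 20200618 under WD. Nus1 served as the check of the genotype labels. Its level was 88.2 ± 5.90 CPM (counts scaled to a common library size; SD, n = 4) in WT livers and 35.1 ± 3.99 CPM in knockout livers under HFD. Under WD it was 94.5 ± 5.57 CPM in WT livers, 46.7 ± 4.75 CPM in knockout livers and 35.8 ± 7.59 CPM in tumors (n = 3 each), and no N-LKO library reached a WT library of its diet. The WD library labelled WT replicate 2 stood apart, with the lowest scaling factor of the 9 WD libraries, 0.806, and with a mean of 5 pan-leukocyte markers 0.61 log2 units below the WT mean. Counts of calls for tumors against WT livers are given with and without it.

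All 31 members passed the filter on low counts in every comparison. To compare genes, levels were divided by exon length (CPM per kb) and read within 1 table only. Bst2 was the highest member in all 5 groups, at 26.2 ± 2.00 CPM per kb in WT livers under HFD and 63.3 ± 6.76 in WT livers under WD. Ifit3 followed, with 11.8 ± 4.58 and 17.1 ± 5.68 CPM per kb. Its SD reached the member next in order, Ifi35 at 8.39 ± 0.446 under HFD and Irf7 at 12.9 ± 1.97 under WD, so that these neighbours did not differ beyond their spread. The lowest levels were those of Oas3 and Oas2 in WT livers under HFD, at 0.107 ± 0.0496 and 0.367 ± 0.111 CPM per kb, and of Mx1 and Oas3 in WT livers under WD, at 0.812 ± 0.309 and 1.02 ± 0.430. Mx1 and Mx2 encode dynamin-like antiviral GTPases, and C57BL6 mice are known to carry a defective Mx1 allele. On the CPM scale, which also follows length, the long gene Parp14, an ADP-ribosyltransferase, led the WD table with 105, 100.04 and 111 CPM in WT livers, and Stat2 led WT livers under HFD with 42.5, 44.4, 41.5 and 43.996 CPM. Estimated counts of Ifit3 and Rtp4 were fractional in all 8 HFD and all 9 WD libraries, which marks reads shared with other features, so their levels are uncertain. Those of Irf1 and Oas1a were fractional in 7 HFD and 9 WD libraries. Gbp7 (1 and 9), Rsad2 (2 and 8), Stat2 (3 and 7), Irf9 (4 and 6) and Ifit1 (1 and 7) had fractional counts too. So did Ddx58 (0 and 5), Parp14 (0 and 5), Oasl1 (0 and 3) and Mx2 (0 and 3), and the same limit holds for all of them. Some further members had fractional counts in fewer libraries.

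**Figure D1:**
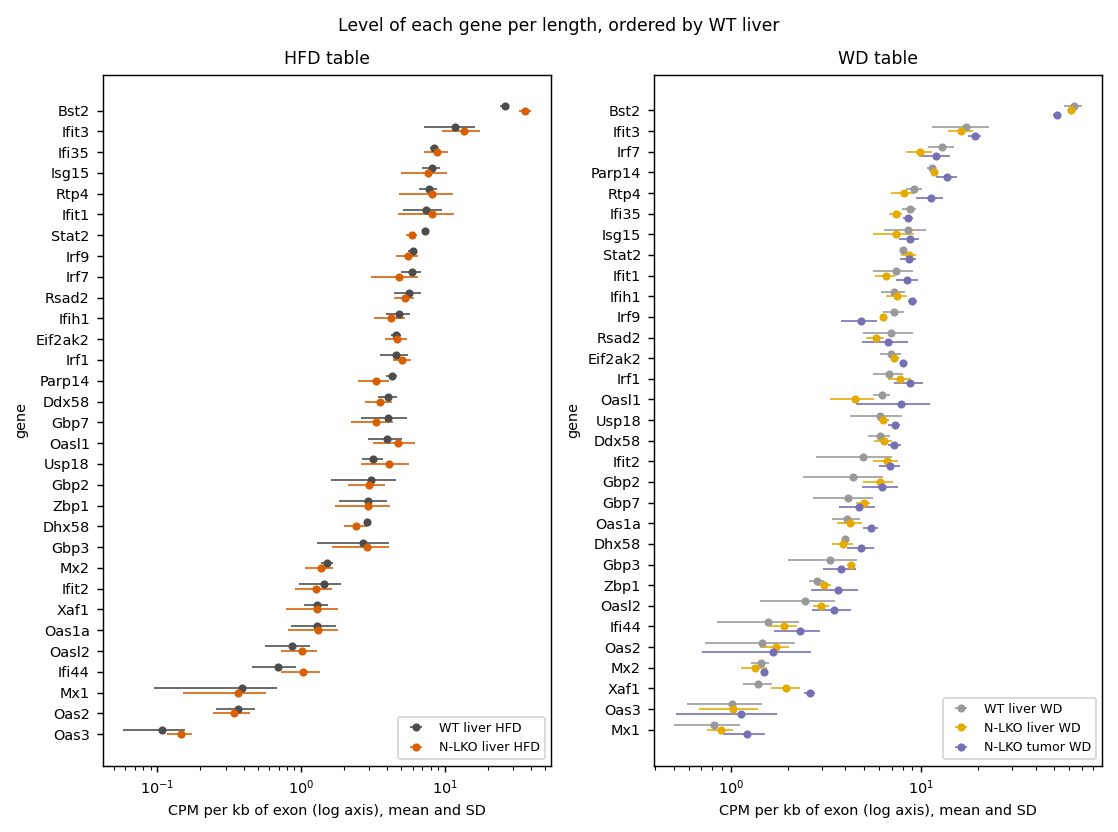
Level of each member in CPM per kb of exon (log axis) as group mean and SD, with genes ordered by WT liver, for the HFD groups (left, n = 4) and the WD groups (right, n = 3). Bst2 is at the top of both panels, at 26.2 CPM per kb in WT livers under HFD and 63.3 under WD, while Oas3 and Mx1 are near the bottom.

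The members tended to vary together from library to library inside the liver groups. In N-LKO livers under HFD, replicate 2 was the lowest of the 4 libraries for 26 of 31 members (83.9%), against 30.2% of all genes tested, and lay below the group mean for 30 of 31. Replicate 3 of the same group was the highest for 18 members (58.1%, against 24.1% of all genes). In WT livers under HFD, replicate 1 was the highest for 23 of 31 members (74.2%, against 26% of all genes). Under WD, WT replicate 2 was the lowest of 3 for 25 of 31 members (80.6%, against 39.6%) and N-LKO replicate 2 for 20 of 31 (64.5%, against 36.8%). In tumors replicate 3 was the lowest for 16 of 31 members (51.6%, against 32.9%) and replicate 2 the highest for 17 (54.8%, against 32%). Tumor replicate 1 was the lowest for 11 and the highest for 11 (35.5% each, against 33.1% and 36.7% of all genes). These libraries were picked out after their values were seen, so the shares are a description.

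Within the HFD livers the members also spread more than all genes did. The median SD of log2 CPM within N-LKO livers under HFD was 0.39 for members and 0.18 for all genes. In WT livers under HFD it was 0.29 against 0.19. Under WD the values were closer, at 0.24 against 0.21 in WT livers and 0.19 against 0.16 in N-LKO livers. The reverse held in tumors, where the members had a median SD of 0.22 and all genes 0.29. Averaged over the 31 members, N-LKO livers under HFD lay 0.17, -0.50, 0.34 and -0.03 log2 units from the WT mean, and the WT livers themselves 0.34, -0.06, -0.14 and -0.14. The N-LKO group therefore contained both the lowest library and a library level with the highest WT library. The mean of the 5 pan-leukocyte markers (Ptprc, Coro1a, Laptm5, Cd52, Cd53) was also lowest in N-LKO replicate 2, at -0.55, and highest in replicate 3, at 0.31, whereas in WT livers it did not peak in replicate 1 (0.09) but in replicate 2 (0.14). Their part in the members' spread was not tested, and in bulk tissue fewer cells of a type and less RNA per cell cannot be told apart.

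**Figure D2:**
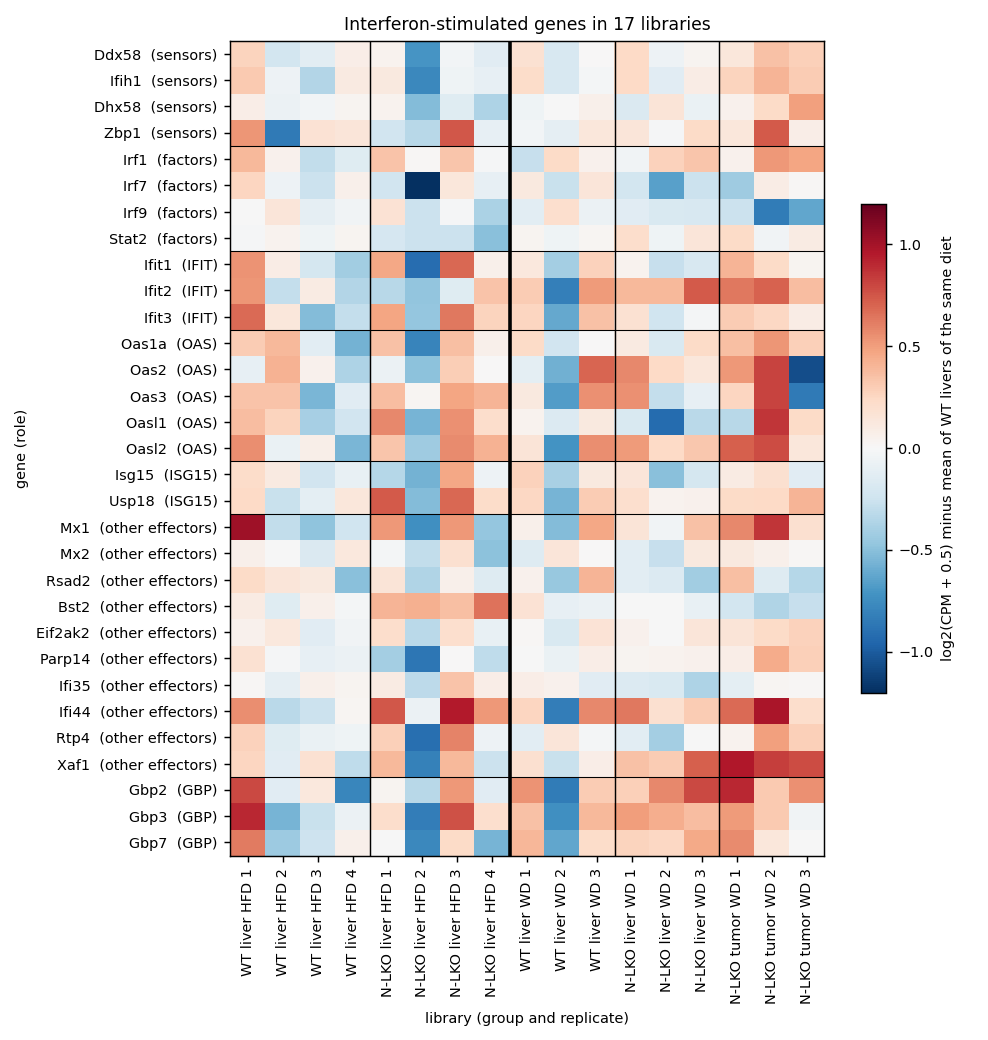
Heat map of the 31 members (rows, grouped by role) in 17 libraries (columns), as log2(CPM + 0.5) minus the mean of the WT livers on the same diet; red is higher and blue lower. The column of N-LKO HFD replicate 2 is blue for nearly all members (mean -0.50) and the column of WT HFD replicate 1 is red (mean 0.34).

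Whether loss of NgBR in hepatocytes changed the interferon program under HFD was read from 4 N-LKO against 4 WT livers. Bst2 alone passed the test among the members, and it rose. The 30 others did not pass, 14 of 31 members had a positive log2 fold change (49.1% of all genes did), and the median was -0.02, against -0.01 over all 13460 genes tested. The call of 1 member of 31 higher (3.23%) compares with 2.56% of all genes called higher and 2.29% called lower, 4.84% in all (edgeR quasi-likelihood test, Benjamini-Hochberg adjusted p under 0.05).

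Bst2 (chromosome 8, 71534255 to 71537456 of GRCm38) was measured at 25.4, 21.3, 24.7 and 23.3 CPM in WT livers and at 31.6, 31.97, 30.6 and 37.4 CPM in HFD-fed N-LKO livers. All N-LKO livers lay above all WT livers. The log2 fold change was 0.47 (SE 0.0966), with an adjusted p of 0.0220. The call was lost with a correction for transcript length and GC content, where the log2 fold change was 0.31 and the adjusted p 0.128, and in 4 of 8 fits that left out a library. Its adjusted p was 0.0661 and 0.0629 when WT replicates 2 and 4 were left out, and 0.0547 and 0.0574 when N-LKO replicates 1 and 4 were. Bst2 has a short transcript of 792 bases, against a median of 3107.5 over tested genes, and across genes the HFD fold change was smaller the longer the transcript (Spearman rho -0.35 over 13182 genes of the same libraries).

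Stat2, a factor of the type I complex, gave 42.5, 44.4, 41.5 and 43.996 CPM in WT and 37.3, 36.0, 35.9 and 30.3 CPM in N-LKO livers. The groups did not overlap, but the log2 fold change of -0.31 had an adjusted p of 0.0646. Parp14 gave 45.3, 39.3, 37.0 and 38.0 CPM in WT and 29.9, 21.6, 39.8 and 32.2 CPM in N-LKO livers, with overlap, a log2 fold change of -0.37 and an adjusted p of 0.172. Bst2 was the 1 member without overlap in the higher direction and Stat2 the 1 in the lower, where 7.39% and 7.4% of all genes had none (14.8% in all). By role, the 4 sensors had log2 fold changes from -0.25 to -0.0046 (Zbp1), and the 4 factors lay between -0.31 and 0.16. Of the 5 Oas genes 4 were above 0, with Oas1a at 0.0025. None of these genes passed the test. Zbp1 changed sign in 10 of 16 alternatives and Oas1a in 8. For 28 of the 31 members the 95% interval of the log2 fold change lay between -1 and 1, so a doubling or halving was outside it. The exceptions were Mx1, Oas3 and Ifi44, whose intervals reached from -1.27 to 1.24 in all.

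**Figure D3:**
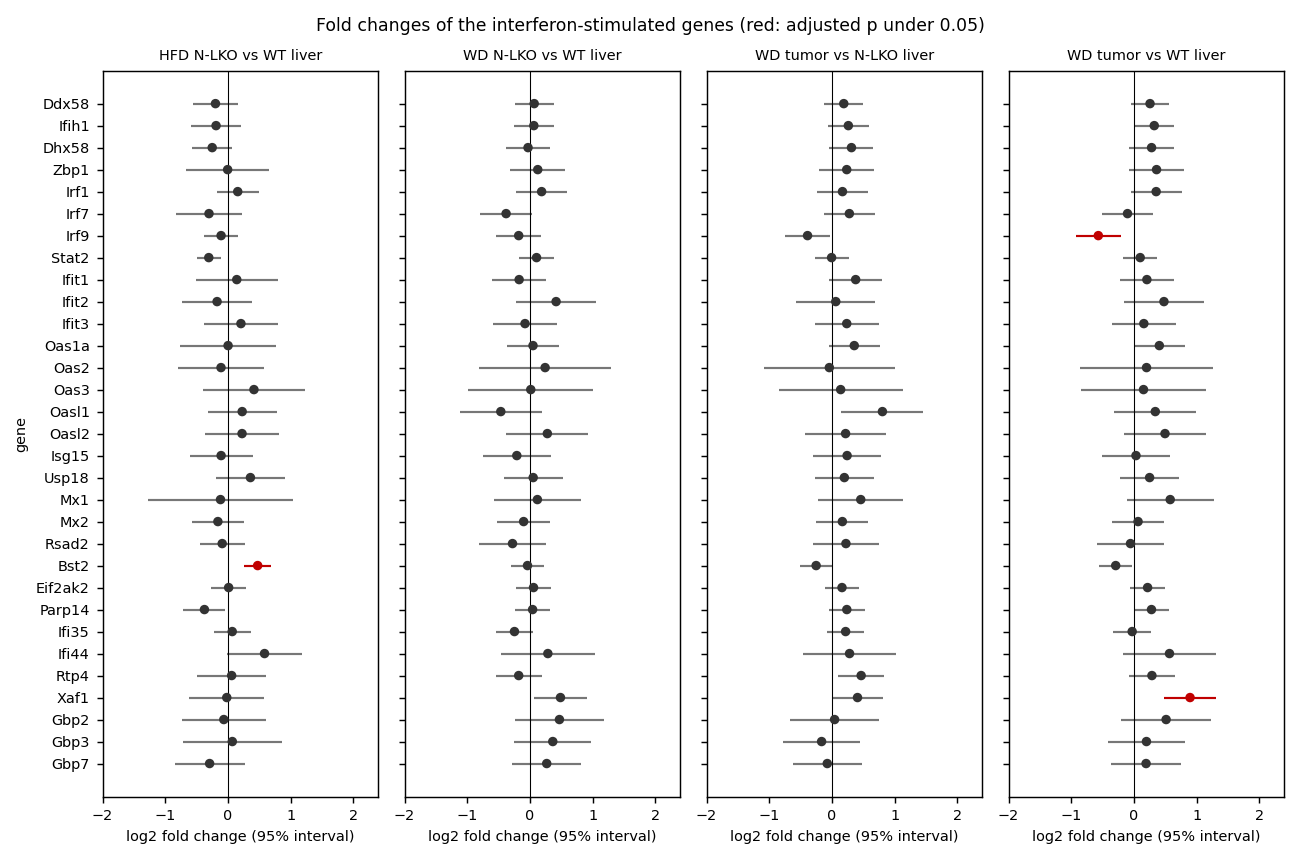
Log2 fold change of each member (dot) with its 95% interval (line) in 4 comparisons; red marks an adjusted p under 0.05. Bst2 is red under HFD (0.47), no gene is red for N-LKO against WT under WD or for tumor against N-LKO liver, and Xaf1 (0.89) and Irf9 (-0.57) are red for tumor against WT liver.

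Under WD, 0 of 31 members passed the test between N-LKO and WT livers, as did 0 of 17829 genes tested (0%; edgeR quasi-likelihood test). At an unadjusted p under 0.05 there were 1 member higher and 0 lower, against 7.1% and 5.31% of all genes (12.4% in all), and the other tools run, DESeq2 and limma-voom, also called 0 members. The log2 fold change of Nus1 itself was -1.02 with an adjusted p of 0.151, so this comparison did not call the deleted gene either. The members' median was 0.05, with 19 above 0 (51.4% of all genes were), and it became -0.04, with 9 above 0, without WT replicate 2.

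The smallest p belonged to Xaf1, with 7.48, 5.29 and 6.86 CPM in WT and 8.42, 8.12 and 11.009 CPM in N-LKO livers. The groups did not overlap, and the log2 fold change was 0.49 (adjusted p = 0.376, edgeR). Irf7, the factor that amplifies type I interferon production, gave 52.3, 40.1 and 53.5 CPM in WT and 41.2, 30.6 and 40.3 CPM in N-LKO livers, with a log2 fold change of -0.38 (adjusted p = 0.427). Ifi35 gave 15.9, 15.6 and 13.6 CPM in WT and 13.4, 13.1 and 11.5 CPM in N-LKO livers (log2 fold change -0.25, adjusted p = 0.469). Xaf1 was the member without overlap in the higher direction, and Irf9, Oasl1 and Ifi35 were those in the lower direction, where 14.3% and 13.6% of all genes had none (27.9% in all). The 95% interval lay between -1 and 1 for 25 of 31 members.

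Whether tumors differed from knockout liver was read from 3 N-LKO tumors against 3 N-LKO livers under WD. None of the 31 members passed the edgeR test, where 0.499% of all genes did (0.437% higher and 0.0617% lower). A positive log2 fold change was found for 25 of 31 members, against 51.7% of all genes, and the median was 0.22, against 0.01. Members varied together in the liver groups, so these signs are not independent counts. Averaged over the 31 members, tumors lay 0.08 to 0.36 log2 units from the WT mean and N-LKO livers -0.05 to 0.14, so the groups overlapped. The 4 sensors (0.19 to 0.31), the 3 Ifit genes (0.06 to 0.38), Isg15 and Usp18 (0.24 and 0.20) and 9 of 10 other effectors were all above 0. Of the 3 guanylate-binding proteins, Gbp3 (-0.17) and Gbp7 (-0.07) were below. At an unadjusted p under 0.05 there were 3 members higher and 1 lower, where 10.1% and 8.19% of all genes were (18.3% in all). DESeq2 and limma-voom also called 0 members.

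Rtp4, a chaperone of receptor transport that is induced by interferon, gave 17.9, 14.6 and 19.5 CPM in N-LKO livers and 20.2, 27.7 and 23.9 CPM in tumors. All tumors lay above all N-LKO livers, and the log2 fold change was 0.47 (adjusted p = 0.180, edgeR). Oasl1, an OAS-like protein without synthetase activity that restrains translation of Irf7, gave 14.1, 8.26 and 12.8 CPM in livers and 12.7, 29.7 and 19.0 CPM in tumors. Its log2 fold change of 0.80 was the largest of the set, with overlap and an adjusted p of 0.193. Irf9 gave 35.0, 33.8 and 33.6 CPM in livers and 32.1, 21.3 and 24.8 CPM in tumors (log2 fold change -0.39, adjusted p = 0.241). Without tumor replicate 1 these 3 genes passed, with adjusted p of 0.0473 for Rtp4, 0.0275 for Oasl1 and 0.0324 for Irf9, in a fit that called 2193 genes in all. Members without overlap numbered 8 higher (Ifih1, Oas1a, Usp18, Eif2ak2, Parp14, Ifi35, Rtp4, Xaf1) and 2 lower (Irf9, Bst2), where 11.5% and 11.6% of all genes had none in those directions (23.1% in all).

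Tumors against WT livers gave the members' largest differences. Xaf1 rose and Irf9 fell, the other 29 members did not pass, and 26 of 31 had a positive log2 fold change (53.2% of all genes did). The calls were 1 of 31 higher (3.23%) and 1 of 31 lower (3.23%), where 8.08% of all genes were called higher and 6.8% lower (14.9% in all). At an unadjusted p under 0.05 there were 2 members higher and 2 lower, where 17.5% and 15.1% of all genes were (32.5% in all). Library means over the members overlapped between tumors (0.08 to 0.36) and WT livers (-0.32 to 0.20 log2 units from the WT mean). The median of the members was 0.25 and that of all genes 0.04. The median was 0.14, with 20 members above 0, without WT replicate 2, the library in which members were lowest.

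Xaf1 (chromosome 11, 72301629 to 72313733) gave 13.1, 11.9 and 11.5 CPM in tumors, against 7.48, 5.29 and 6.86 CPM in WT livers. All tumors lay above all livers of either genotype, and the log2 fold change against WT was 0.89 (SE 0.187, adjusted p = 0.0168, edgeR). Its call was lost in a fit of these groups alone (adjusted p = 0.0517) and without WT replicate 2 (log2 fold change 0.76, adjusted p = 0.0623), and held in 16 of 18 alternatives.

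Irf9 (chromosome 14, 55603571 to 55610030), the DNA-binding subunit of the type I complex, gave 32.1, 21.3 and 24.8 CPM in tumors and 35.1, 44.2 and 36.6 CPM in WT livers. The log2 fold change was -0.57 (SE 0.163, adjusted p = 0.0433), without overlap. The call held in 7 of 18 alternatives. Of the 9 fits that left out a library it held without tumor replicate 1 and was lost in the other 8, with adjusted p up to 0.142 without WT replicate 2. With the replicate number as a block it was 0.0683. Its counts were fractional in 4 of the HFD and 6 of the WD libraries.

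Bst2 was low in tumors. Its CPM was 64.2, 53.0 and 54.3 in WT livers, 56.6, 56.7 and 53.6 in knockout livers and 48.8, 44.3 and 47.1 in tumors. Every tumor lay below every liver, but the log2 fold change against WT of -0.29 had an adjusted p of 0.117. Without overlap there were 4 members higher (Ifih1, Oas1a, Parp14, Xaf1) and 2 lower (Irf9, Bst2), where 17.7% and 16.4% of all genes had none (34.1% in all). The sensors (0.26 to 0.36), the Oas genes (0.15 to 0.50), the Ifit genes (0.16 to 0.48) and the Gbp genes (0.19 to 0.51) all had positive log2 fold changes that did not pass. The 95% interval lay between -1 and 1 for 23 of 31 members, and the highest bound was 1.31.

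**Figure D4:**
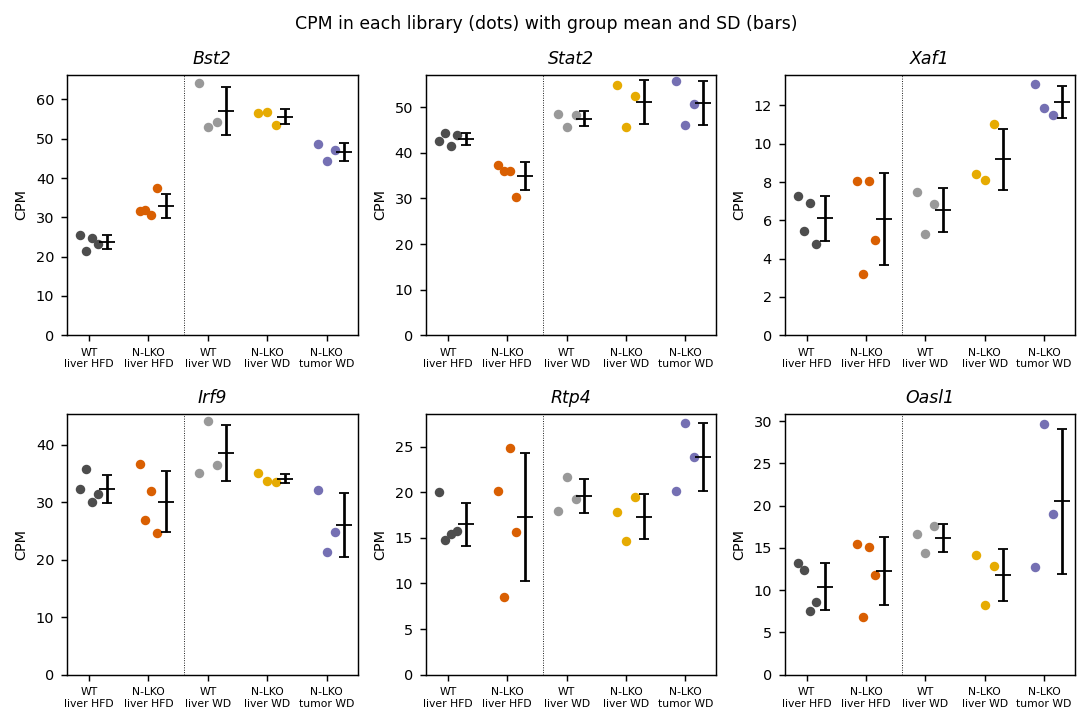
CPM of 6 members in each library (dots) with group mean and SD (black bars), HFD groups left and WD groups right of the dotted line. Bst2 is higher in N-LKO than in WT livers under HFD (30.6 to 37.4 against 21.3 to 25.4) and lowest in tumors under WD, and Xaf1 is highest in tumors (11.5 to 13.1).

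The genotype effect was also compared between diets, as an interaction over the 14 livers. None of the 31 members passed in edgeR, where 1.62% of 15850 genes did (0.587% higher and 1.03% lower under WD). At an unadjusted p under 0.05 there were 2 members higher and 1 lower, against 9.18% and 10.8% of all genes (20% in all), and 18 of 31 members were above 0, as were 50.5% of all genes. Bst2 differed by -0.49 (WD minus HFD effect, adjusted p = 0.0745), Stat2 by 0.43 (0.0837) and Parp14 by 0.44 (0.232). DESeq2 called Bst2 and Stat2, with adjusted p of 0.0272 and 0.0299, and limma-voom called neither. Bst2 was 0.47 log2 units higher in N-LKO than in WT livers under HFD and 0.04 lower under WD, and Stat2 was 0.31 lower under HFD and 0.11 higher under WD. Log2 differences of the effect also followed transcript length across genes (Spearman rho 0.34).

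Genes above and beside the members in the pathway were taken from 5 lists. Of 9 interferon genes listed, Ifnk had a row in the tables, and the others were not analysed here. Under HFD, Ifnar1, the receptor chain that binds TYK2, fell from 40.9, 33.4, 37.4 and 35.7 CPM in WT to 27.8, 26.9, 28.7 and 27.4 CPM in N-LKO livers. The groups did not overlap, and the log2 fold change was -0.41 (adjusted p = 0.0240, edgeR). The call was lost without WT replicate 4 and without N-LKO replicates 1, 3 or 4, with adjusted p up to 0.0662. Ifnar2 (0.17), Ifngr1 (-0.01) and Ifngr2 (0.46) did not pass, so that 0 of 8 receptor and kinase genes tested rose and 1 fell, where 2.56% and 2.29% of all genes did.

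Among 38 other interferon-induced genes tested under HFD, 1 rose and 1 fell, which is close to the 2.56% and 2.29% of all genes. Helz2, a helicase and nuclear receptor coactivator, fell from between 72.0 and 94.3 CPM in WT to between 53.6 and 57.1 CPM in N-LKO livers (log2 fold change -0.57, adjusted p = 0.00988), in all 16 alternatives. Apol9a, of the apolipoprotein L family, rose from between 79.2 and 92.4 to between 94.7 and 141 CPM (log2 fold change 0.44, adjusted p = 0.0493). Apol9a and Apol9b are near-identical copies that can share reads, and the call of Apol9a held in 6 of 16 alternatives. None of 11 sensing and adaptor genes and none of 9 restraint genes passed in edgeR.

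Under WD, 0 genes of these lists passed between N-LKO and WT livers or between tumors and N-LKO livers (edgeR). At an unadjusted p under 0.05, the 42 other interferon-induced genes held 2 higher and 1 lower in the first comparison and 8 higher and 1 lower in the second, where 7.1% and 5.31%, and 10.1% and 8.19%, of all genes were. Against WT livers, tumors were higher for 8 of these 42 genes (19%) and lower for 0, where 8.08% of all genes were called higher, and the median log2 fold change was 0.39. Without WT replicate 2 it was 3 of 42, where 1.81% of all genes were higher, with a median of 0.23. The 3 were Gbp4, Gbp9 and Herc6, which passed in all 18 alternatives. The count was also 3 without tumor replicate 2 or without WT replicate 3, 4 without WT replicate 1 and 5 without N-LKO liver replicate 1 or 3, and it was 12 without tumor replicate 1. The list was chosen with earlier results of these data known, so these shares are a description.

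Herc6, the ligase that attaches ISG15 in mice, gave 24.9, 25.0 and 25.5 CPM in WT livers and 39.3, 56.1 and 58.1 CPM in tumors (log2 fold change 1.02, adjusted p = 0.00957). Gbp4 gave 5.42, 3.19 and 6.68 CPM in WT livers and 12.1, 12.8 and 12.4 CPM in tumors (log2 fold change 1.28, adjusted p = 0.0119). Gbp9 gave 16.5, 7.32 and 15.1 CPM in WT livers and 26.1, 50.2 and 39.0 CPM in tumors (log2 fold change 1.56, adjusted p = 0.0136). In each of these the tumors lay above all WT livers. Tgtp1 (1.67) and Phf11d (0.99) also passed, with adjusted p of 0.0268 and 0.0289, in 15 and 13 of 18 alternatives. The Gbp genes are a family of related copies, and their counts can share reads.

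In the same comparison 3 of 9 receptor and kinase genes rose and 0 fell, where 8.08% of all genes rose and 6.8% fell. Ifnlr1 and Il10rb, the chains of the interferon lambda receptor, had log2 fold changes of 1.91 (adjusted p = 0.0226) and 0.97 (0.0359), and Ifngr1 of 0.75 (0.0298). Ifnlr1 was low, at 0.407 to 0.417 CPM in WT livers and 1.26 to 1.78 CPM in tumors. Ifnar1 (0.12), Ifnar2 (0.12) and Ifngr2 (0.14) did not pass. None of the 9 passed without WT replicate 2.

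Of 12 sensing and adaptor genes tested, 2 fell and 2 rose, and of 9 restraint genes 1 fell and 1 rose, again beside 6.8% and 8.08% of all genes. Mavs, the mitochondrial adaptor of RIG-I and MDA5, fell from 84.2, 121 and 96.9 CPM in WT livers to 48.1, 57.3 and 55.3 CPM in tumors (log2 fold change -0.91, adjusted p = 0.0111), in all 18 alternatives. Myd88, the adaptor of Toll-like receptors, fell by 0.64 on the log2 scale (adjusted p = 0.0266). Aim2, a sensor of cytosolic DNA, and Ikbke, a kinase that activates IRF3, had log2 fold changes of 1.91 (0.0174) and 1.13 (0.0192). Among the restraint genes Irf2, which competes for ISRE sites, fell by 0.54 (0.0382) and Trim30a had a log2 fold change of 1.13 (0.0128). Without WT replicate 2 Mavs and Trim30a still passed and the other genes of both lists did not.

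**Figure D5:**
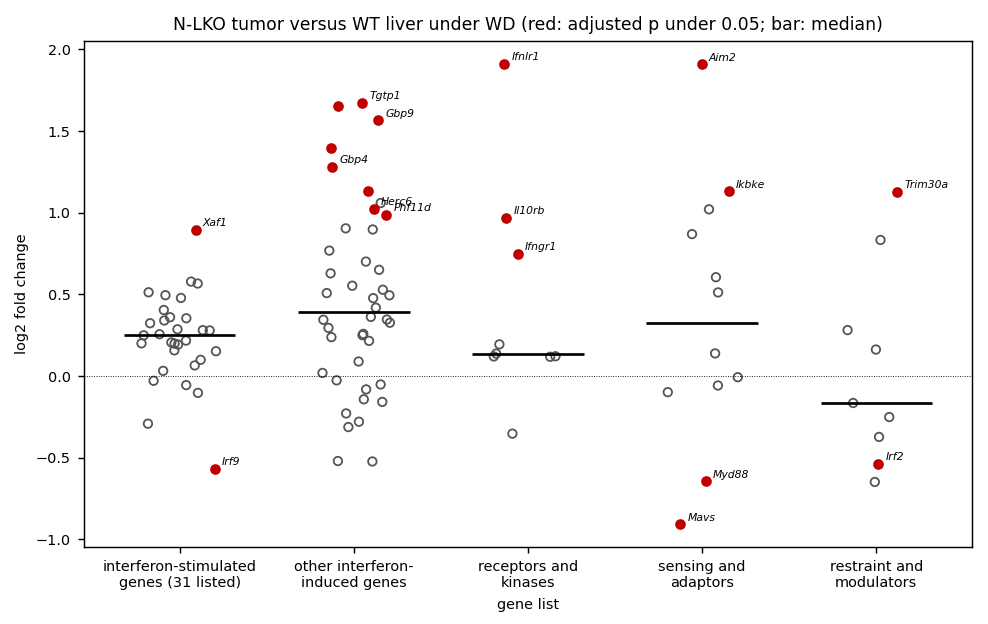
Log2 fold change of tumor against WT liver under WD for the 31 members and 4 other lists (points; red with an adjusted p under 0.05, up to 5 per list named; bar, median). Other interferon-induced genes reach 1.67 (Tgtp1), above the highest member, Xaf1 at 0.89, and Mavs is the lowest at -0.91.

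Some cell type markers passed the test in tumors against WT livers and between the HFD livers. Under WD, 0 markers passed between N-LKO and WT livers, as did 0 of all genes (edgeR). In tumors against WT livers, Ptprc rose among the 5 pan-leukocyte markers, 2 of 5 tested T cell markers rose (Cd3g and Cd4), Itgax rose among 6 markers of recruited macrophages, and Siglech, a marker of plasmacytoid dendritic cells, rose. All 5 Kupffer cell markers (Clec4f, Timd4, Vsig4, Cd5l, Marco) were lower without overlap, as were 16.4% of all genes, and 3 of them passed (Timd4, Cd5l, Marco). Of all genes, 8.08% were called higher and 6.8% lower in this comparison. The 6 hepatocyte markers all had log2 fold changes below 0 (median -0.91) and 2 fell (Ttr and Tat). Pecam1 rose and Clec4g fell among 5 endothelial markers, and Reln fell among 5 stellate cell markers. Of 4 cholangiocyte markers Sox9 rose with a log2 fold change of 2.67, while 2 lay below 0 and the median was 0.27. Against N-LKO livers 3 of these 4 lay below 0 in tumors, with a median of -0.84. The 1 above 0 passed, with a log2 fold change of 1.90 (adjusted p = 0.0355, edgeR). No marker of another type passed against N-LKO livers. No B cell, NK cell or neutrophil marker passed. Without WT replicate 2 the markers that passed were Cd5l, Itgax and Sox9, and the median of the hepatocyte markers was -0.67. The summed level of the leukocyte markers was 72.4 to 129 CPM in WT livers, 150 to 153 in N-LKO livers and 123 to 218 in tumors. That of the Kupffer cell markers was 388 to 564, 327 to 389 and 97.2 to 311 CPM. Under HFD the Kupffer cell markers summed to 102.5 to 157 CPM in WT and 49.0 to 102.5 CPM in N-LKO livers. Of the 5, 4 fell, where 2.29% of all genes were called lower. Timd4 fell in all 16 alternatives. The count of 4 dropped to 1 with the replicate block and without N-LKO replicate 1, 2 or 3 or WT replicate 2 or 4. Stab2, an endothelial marker, also fell under HFD. None of the 5 pan-leukocyte and 5 Kupffer cell markers was at 0 in any library. Some markers of other types reached 0, such as Cd3d and Retnlg in WT livers under HFD. No T cell or B cell marker passed the filter on low counts under HFD. The part of the cell type markers in the differences of the interferon genes was not tested.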

How the data were processed

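Ribosomal RNA was removed with a Ribo-Zero kit and single-end reads were sequenced on an Illumina HiSeq instrument. The study's methods name TopHat2 for alignment, whereas the submitters' processing notes name STAR, Partek and the build mm9. The labels name a small RNA library kit. Per gene, the authors deposited estimated counts made in Partek, where reads that fit several features are divided, without scaling or pooling. Strand use and software versions are not given in the sources used here. Gene starts in the tables were those of the GENCODE annotation of GRCm38 for 30 of the 31 members (all but Isg15), 18585 HFD genes and 23418 WD genes, so coordinates are given on GRCm38.

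Groups came from the sample titles. All 17 columns were mapped to a sample. Counts were rounded and tested with edgeR 4.0.16 (R 4.3.3; TMM scaling, filterByExpr, quasi-likelihood F test, Benjamini-Hochberg adjusted p under 0.05 over all genes). The study's own test used aligned reads, which were not used here. Separate fits were made of the 8 HFD livers, of all 9 WD libraries, and of the 14 livers for the diet interaction. The common biological coefficient of variation was 0.149, 0.243 and 0.163. Library totals of 9096110 to 20200618 set the depth. A standard error is the log2 fold change divided by the square root of F, an approximation. DESeq2 1.42.0, limma-voom (limma 3.58.1), other scalings and filters, a length and GC offset, a replicate block and leaving out each library were alternatives. Scripts were tested on simulated data. Any member may be named; values per sample are given for members past the threshold, for the 3 with the smallest p where fewer than 3 passed and for those with the highest levels, and at most 5 called genes are named per pathway list. A gene of the pathway lists is not reported here. The members and lists were chosen with earlier results of these data known.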

Additional observations from a re-analysis of the deposited data

Results flagged for a closer look

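Libraries far from the others of their group were looked for in 82 gene and group combinations under HFD, and 4 were found, about as many as chance gives at 1 in 20 groups. Mx1 was at 3.13 CPM in WT replicate 1 and between 0.778 and 1.02 CPM in the other WT livers under HFD. The mean of the 31 members was also highest in that library, at 0.34 log2 units above the WT mean, and between -0.14 and -0.06 in the other 3. Zbp1 was at 16.6 CPM in N-LKO replicate 3 and between 7.58 and 9.04 CPM in the other livers of its group. Ifngr1 was at 16.2 CPM in N-LKO replicate 2, the library with the lowest members, and between 13.0 and 13.2 CPM in the others.

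The genotype effect differed between the diets for Apol9a and Apol9b among the other interferon-induced genes, with an effect under WD minus that under HFD of -0.86 (edgeR, adjusted p = 0.0398) and -1.14 (adjusted p = 0.0237) on the log2 scale. Under HFD, Apol9b gave 107, 85.3, 103.5 and 101.7 CPM in WT and 135, 110.3, 148 and 122 CPM in N-LKO livers, and 77.2, 107 and 65.3 CPM in WT and 53.6, 38.8 and 51.1 CPM in N-LKO livers under WD. The groups lay on opposite sides under the diets. Both calls were lost with the length and GC offset and with the replicate block, and they held in 9 (Apol9a) and 16 (Apol9b) of 22 alternatives.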

How the results depend on the processing

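Single members past the threshold or among the 3 smallest p of a comparison were followed through the alternatives. Of these 276 log2 fold changes, 253 kept their side of the threshold and 0 changed sign. Among all 31 members, signs changed in at least 1 alternative for 13 under HFD and 14 for N-LKO against WT under WD. That number was 8 for tumor against N-LKO liver, 11 for tumor against WT liver and 14 for the difference between diets. The median log2 fold change of the members moved by less than the spread between libraries in all 92 recomputed values, but it lay near 0 in the liver comparisons and changed sign in 4 of 16 alternatives under HFD, 2 of 18 for N-LKO against WT under WD and 4 of 22 for the difference between diets. It changed sign in 0 of 18 for tumors against either liver group. Under HFD the number of members called was 0 with the length and GC offset and ran from 0 to 1 over fits that left out a library. For N-LKO against WT under WD it was 0 in all 18 alternatives. For tumor against N-LKO liver it ran from 0 to 3 over fits that left out a library, with 3 only without tumor replicate 1. For tumor against WT liver it was 1 with upper-quartile scaling, 1 with the replicate block, 0 in a fit of these groups alone, and from 0 to 2 over fits that left out a library. Among the 42 other interferon-induced genes the number higher in tumors than in WT livers ran from 3 to 12. For the difference between diets DESeq2 called 2 members. The replicate block changed no other member call. The labels do not say whether replicate numbers pair the samples. Deviations of same-numbered libraries correlated between -0.14 and 0.12, which with so few libraries cannot exclude a pairing. The cause of these changes was not tested. Depth limits the low members most: Oas3 was at 0.334 to 1.05 CPM in WT livers under HFD.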
